A study of Mus musculus with 6 samples.

Results

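The genes described here are 41 genes of the p53 pathway and of the apoptotic machinery, chosen by symbol: p53 with its regulators and targets (14 genes), the Bcl2 family (10 genes), caspases with the apoptosome and its inhibitors (9 genes), and death receptors with Traf adaptors and 1 ligand (8 genes). Of these, 37 were among the 19057 genes named on the array, with 105 of its 45281 probes. Trp53, Bax, Gdf15 and Traf3 were not analysed here. RNA came from whole mouse kidneys at E13.5, from 3 control samples and 3 samples of the genotype YapCM-/-, all of a mixed C57BL/6 and 129S1/SvImJ background. From what is known of the study, Yap was removed in the cap mesenchyme (CM), where the nephron progenitors lie, by a Cre recombinase driven from Six2, so the organ also holds stroma, endothelium and ureteric bud that kept the gene. The labels do not give the alleles of the controls, nor whether a sample pooled several embryos, so each p-value rests on how far these samples differ from one another, partly perhaps for technical reasons. Each sample was read on 1 Illumina bead array, and a value is the log2 signal of a probe, normalised between arrays by the authors.

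The p53 protein is a transcription factor that is held low by the ubiquitin ligase Mdm2 and its relative Mdm4. When it is released it raises genes that stop the cell cycle, such as Cdkn1a, and genes that start apoptosis, such as the BH3-only gene Bbc3. In the mitochondrial pathway, proapoptotic Bcl2 relatives open the outer membrane, cytochrome c binds Apaf1 and caspase 9 is activated. In the receptor pathway, Fas and related receptors recruit Fadd and caspase 8, and Traf adaptors pass on signals of the TNF receptor family. Nephron progenitors are known to be sensitive to excess p53, since loss of Mdm2 in these cells of the mouse depletes them.

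In the YapCM-/- kidneys 1 gene of the 35 tested passed: Traf1, an adaptor of TNF receptor signalling, fell, with 0.177% of all tested probes called. Its call was lost when any 1 of the 6 arrays was left out (adjusted p from 0.0582 to 0.120) and with the mean of its probes (adjusted p = 0.0888). Tnfsf13b, the cytokine BAFF, was higher on every YapCM-/- array than on any control array but missed the threshold. Of 11 tested genes of the p53 class, 6 stood above 0 and 5 below, and none passed. On their brightest probe Mdm2, Cdkn1a, Sesn1 and Trp53inp1 were above all controls, by 1.17-fold to 1.30-fold, although at least 1 other probe of each of these 4 genes was not. Of the 23 tested probes of the p53 class, 21.7% were above all controls and none below, against 8.11% and 8.41% of all tested probes. Of 32 further genes of the p53 network, 2 were above all controls and 6 below by brightest probe. Over the 58 tested probes of those further genes the shares were 3.45% and 13.8%. The caspases Casp2, Casp6, Casp8 and Casp9, and Mcl1 and Bcl2, lay at about the same signal in both groups.

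The arrays resembled each other closely, with correlations from 0.983 to 0.993 between pairs over the tested probes, which are not independent replicates. The Yap1 probe read 9.75, 9.81 and 9.64 in control and 8.91, 8.72 and 8.99 in YapCM-/- kidneys, a difference of -0.86 (SE 0.093, limma adjusted p = 0.0102). No YapCM-/- array reached a control array, and the labels hold for this gene; no source used here says whether its probe lies in the deleted part. This call was lost on leaving out control replicate 1 (adjusted p = 0.0954) or control replicate 3 (adjusted p = 0.0518), and after background subtraction (-1.03, adjusted p = 0.0526). Of 8 kidney markers with a tested probe, Ret of the bud tips rose and 7 did not pass, and Gata3 and Foxd1 were bright on all arrays. Of 8 nephron progenitor markers, Meox2 and Cited1 fell and 6 did not pass. By brightest probe 5 of the 8 stood below 0 and 3 above. Among those that did not pass, Six2 was lower without overlap (-0.36) and Eya1 higher without overlap (0.34). Markers of gonad and adrenal, which lie next to the kidney, were at the dim end: 4 of 6 genes had no probe bright enough to be tested.

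Each tested probe was compared between the groups by limma, and p-values were adjusted over all 22640 tested probes, the 50% of the array with the highest mean signal. Of the 105 probes of these genes 77 were tested, covering 35 genes; Perp and Fas had only dimmer probes. Over all tested probes 40 passed an adjusted p of 0.05, which is 0.177%, and among the 77 probes 1 passed. At an unadjusted p under 0.05 stood 11 of the 77 (14.3%), against 11.5% of all tested probes. The 2 groups did not overlap on 15 of the 77 (19.5%), against 16.5% of all. Split by direction, 11 of these probes (14.3%) were higher in YapCM-/- kidneys, against 8.11% of all tested probes. Another 4 (5.19%) were lower, against 8.41%. Probes of 1 gene were counted apart, and Tnfsf13b and Cdkn1a each gave more than 1 of the 11. Of the 4, both Traf1 probes and the Bcl2l11 probe had a YapCM-/- mean under 7.29, the lowest mean of any tested probe. Of the 11, the dimmest Tnfsf13b probe had a control mean under it. These probes passed the filter only through the group where they were higher. Among 125 tested probes of further genes of these pathways, given last, the split ran the other way, with 5 (4%) higher and 13 (10.4%) lower. The median difference of the 35 genes, each by its brightest tested probe, was 0.0055 on the log2 scale, and that of all 11762 tested genes was 0.0039. Of the 35 genes, 29 differed by less than 0.25 on the log2 scale.

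**Figure D1:**
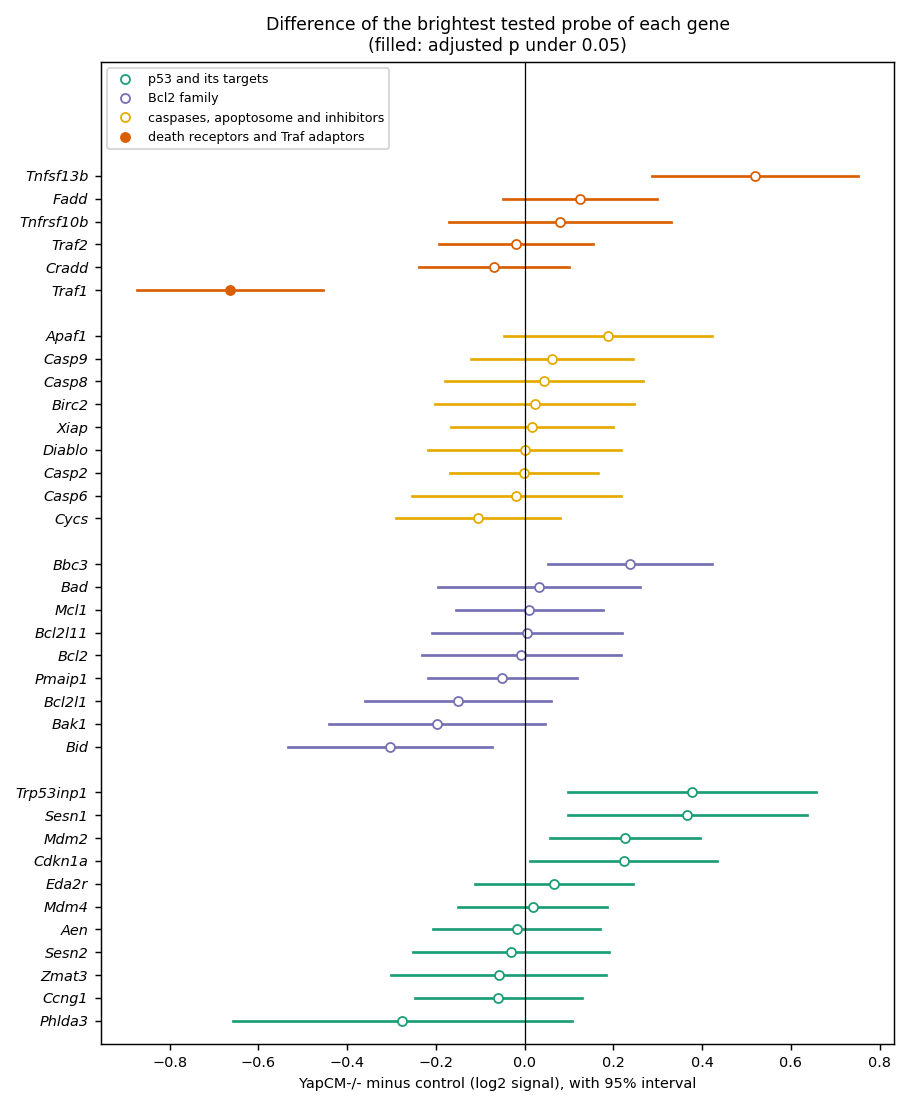
Difference in log2 signal between YapCM-/- and control kidneys for the brightest tested probe of each of 35 genes, in 4 classes by colour; lines are 95% intervals of the limma fit with 3 arrays a group, and a filled circle marks an adjusted p under 0.05. Traf1 at -0.66 is the 1 filled circle, Tnfsf13b at 0.52 lies farthest on the other side, and the caspase class stays between -0.11 and 0.19.

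Among p53 and its targets, 11 genes had a tested probe and none of the 23 probes passed in limma (4 at an unadjusted p under 0.05, all higher). Their median difference was 0.018, and it was 0.22 when only the brightest 25% of probes were kept, which drops the dim genes of the class. Mdm2, the ligase that degrades p53 and is itself one of its targets, read 10.08, 10.01 and 10.13 in control and 10.25, 10.33 and 10.32 in YapCM-/- kidneys on its brightest probe. The lowest YapCM-/- array stood above the highest control array, and the difference was 0.23 (SE 0.076, adjusted p = 0.302), or 1.17-fold. A second Mdm2 probe did not follow, at -0.14 (adjusted p = 0.60), nor did a further dim one at -0.01.

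Cdkn1a, the cyclin-dependent kinase inhibitor p21, read 8.26, 8.21 and 8.14 in control and 8.35, 8.61 and 8.31 in YapCM-/- kidneys. The groups did not overlap, but YapCM-/- replicate 2 carried much of the difference of 0.22 (SE 0.095, adjusted p = 0.417), which was 0.13 without it. The second Cdkn1a probe was also higher without overlap, at 0.11 (adjusted p = 0.608), and a further dim one stood at -0.11. The plot of single arrays shows both genes with small gaps between the groups.

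Trp53inp1, a p53-induced protein with roles in apoptosis and autophagy, read 8.70, 9.10 and 9.09 in control and 9.21, 9.28 and 9.53 in YapCM-/- kidneys. All YapCM-/- values were higher, and control replicate 1 was the lowest of the 6; the difference was 0.38 (SE 0.125, adjusted p = 0.292). Its other probe differed by 0.23 with overlapping groups. Sesn1, a stress-induced inhibitor of growth signalling, read 9.54, 9.47 and 9.95 in control and 9.99, 9.98 and 10.09 in YapCM-/- kidneys. Control replicate 3 lay close to the YapCM-/- arrays, while the other two controls lay well below, and the difference was 0.37 (SE 0.121, adjusted p = 0.287). Both further Sesn1 probes were above 0, at 0.09 and 0.14, with overlapping groups.

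The remaining p53 targets did not separate the groups. Phlda3, an inhibitor of Akt signalling, had the lowest difference of the class, at -0.28 (95% interval -0.66 to 0.11), with its other probe at -0.31. Its values were spread widely within both groups, from 8.52 to 9.08 in control and from 8.32 to 8.91 in YapCM-/- kidneys. Ccng1, cyclin G1, stood at -0.06, Zmat3, an RNA-binding p53 target, at -0.06, and Sesn2 at -0.03. Eda2r, the ectodysplasin A2 receptor, stood at 0.07, Aen, an apoptosis-enhancing nuclease, at -0.02 and Mdm4 at 0.02. The brightest probes of Mdm4, Sesn2, Aen and Eda2r stayed between 7.25 and 7.91 on every array, not far from the array median of 7.30. Perp, a desmosomal p53 target, was not tested and read 7.10 ± 0.11 in control and 7.13 ± 0.05 in YapCM-/- kidneys (SD, n = 3 each). Of the untested probes of Mdm4, 1 was higher without overlap, at 7.09 against 7.25.

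The promoters of these genes were searched for the p53 decamer, the short consensus of which a full binding site holds a pair, in the 250 bases before each RefSeq start site of the build GRCm38.p6. Both strands were read, and the consensus reads alike on both. It was found in 6 of 16 windows of the p53 class (37.5%), in 1 of 15 windows of the Bcl2 class, in none of 12 of the caspase class and in 1 of 8 of the receptor class, against 7.13% of all 32841 windows. Windows of 1 gene can overlap. The p53 class was chosen as p53 with its regulators and targets, so its higher share is a description and not a test. The stretches around it are shown for the genes above all controls that hold it, with the decamers in capitals and the gene's strand read 5′ to 3′. Cdkn1a holds it 2 times, 73 and 51 bases before 1 of its starts, at chr17:29090881-29090962 on the plus strand. The window of a further Cdkn1a start downstream, at chr17:29093519-29093768, does not hold it. Mdm2 holds it 186 bases before its start, at chr10:117710910-117710969 on the minus strand. Sesn1 holds it 173 bases before a start that lies inside the gene's outer bounds, at chr10:41887241-41887300 on the plus strand. The window of a further Sesn1 start upstream, at chr10:41810324-41810573, does not hold it.
Cdkn1a: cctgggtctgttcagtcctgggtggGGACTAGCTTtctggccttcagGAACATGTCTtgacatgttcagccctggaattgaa
Mdm2: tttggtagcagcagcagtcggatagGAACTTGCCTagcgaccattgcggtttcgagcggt
Sesn1: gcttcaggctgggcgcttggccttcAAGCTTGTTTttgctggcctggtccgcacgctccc
Windows of Ccng1 and Aen hold the decamer too, and their brightest probes stood at -0.06 and -0.02. Bbc3 and Fadd were above all controls on their brightest probes, but their windows do not hold it. Trp53inp1, also above all controls, had no window to search. A match describes the letters only, and binding was not measured.

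**Figure D2:**
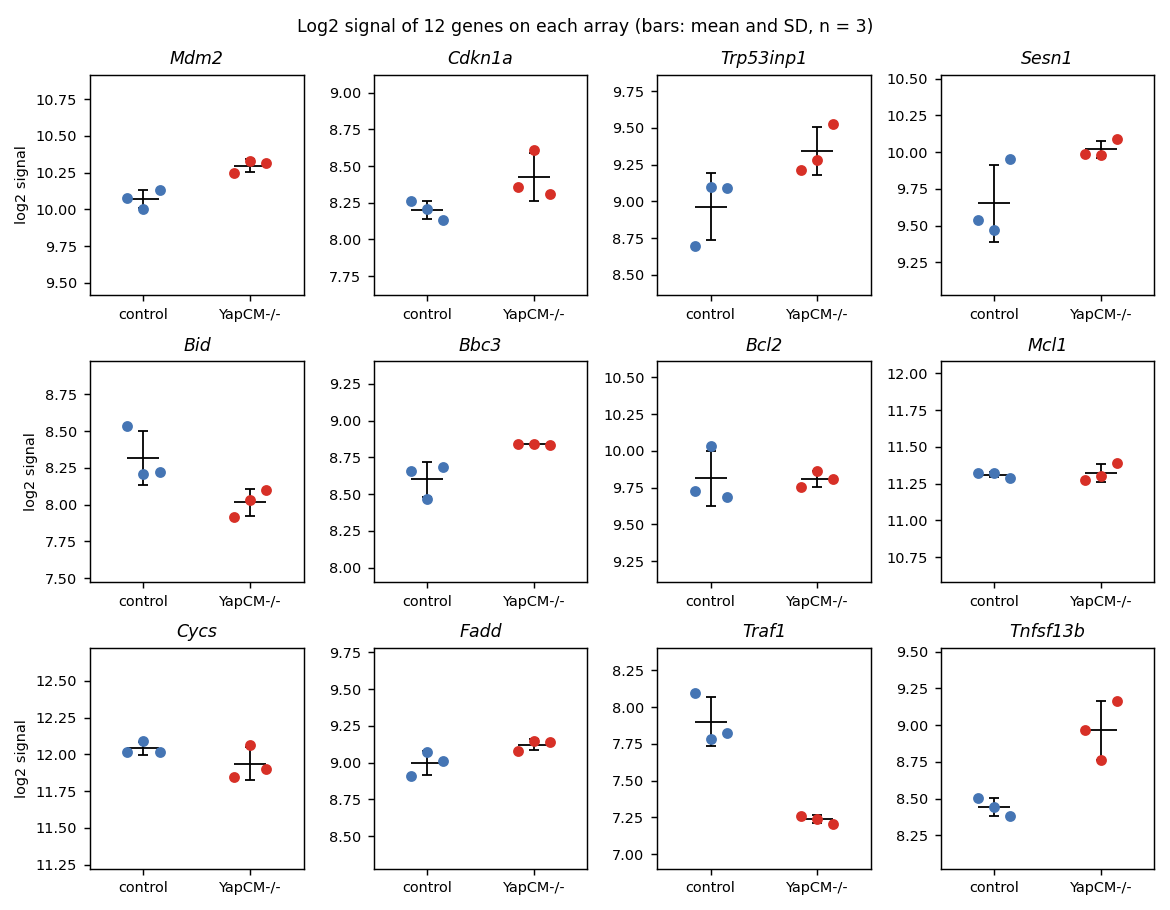
Log2 signal of the brightest tested probe of 12 genes on each array, control in blue and YapCM-/- in red, with the mean and SD of 3 arrays; every panel spans the same height on the log2 axis but starts at its own level. Traf1 falls from 7.90 to 7.24 and Tnfsf13b stands at 8.44 against 8.96, while Mcl1 and Bcl2 stay level.

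In the Bcl2 family, 9 genes had a tested probe and none of the 21 probes passed in limma (with 1 higher probe and 1 lower one under an unadjusted p of 0.05). The median difference was -0.0070, with 4 genes above 0 and 5 below. The antiapoptotic members differed little. Mcl1, which holds the effectors in check, read 11.32, 11.32 and 11.29 in control and 11.27, 11.30 and 11.39 in YapCM-/- kidneys, so that its 95% interval ran from -0.15 to 0.18. Bcl2 itself read 9.73, 10.03 and 9.69 in control and 9.75, 9.86 and 9.81 in YapCM-/- kidneys, a difference of -0.01 with an interval from -0.23 to 0.22. The other 5 tested probes of Bcl2 lay between -0.11 and 0.11, and its 3 untested ones between -0.05 and -0.02. Bcl2l1, which encodes Bcl-xL, stood at -0.15 (interval -0.36 to 0.06), and its other tested probes at -0.02 and -0.04.

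None of the BH3-only genes, which sense damage and release the effectors, passed the test. Bbc3, encoding Puma, a main apoptotic target of p53, read 8.65, 8.46 and 8.68 in control and 8.84, 8.84 and 8.83 in YapCM-/- kidneys. The YapCM-/- arrays were nearly identical and all above control, by 0.24 (SE 0.083, adjusted p = 0.319), or 1.18-fold. Both further Bbc3 probes, which were dimmer, stood at 0.13 and 0.0015. Bid, which links caspase 8 to the mitochondrion, read 8.53, 8.21 and 8.22 in control and 7.92, 8.03 and 8.10 in YapCM-/- kidneys. All YapCM-/- values were below all control values, with control replicate 1 the highest, and the difference was -0.30 (SE 0.103, adjusted p = 0.307). The dimmer Bid probe stood at 0.09 with overlapping groups. Bcl2l11, encoding Bim, had 8.94 in both groups on its brightest probe, and its dimmest tested probe was lower without overlap, at -0.12 (adjusted p = 0.636). That dim probe passed the filter only through its control arrays, with a YapCM-/- mean of 7.24 under the lowest tested mean of 7.29. Pmaip1, encoding Noxa, was dim, at 7.34 and 7.29, and Bad stood at 0.03. Bak1, a pore-forming effector, was at -0.20 (interval -0.44 to 0.05), from 7.65 ± 0.17 to 7.45 ± 0.16 (SD, n = 3 each).

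**Figure D3:**
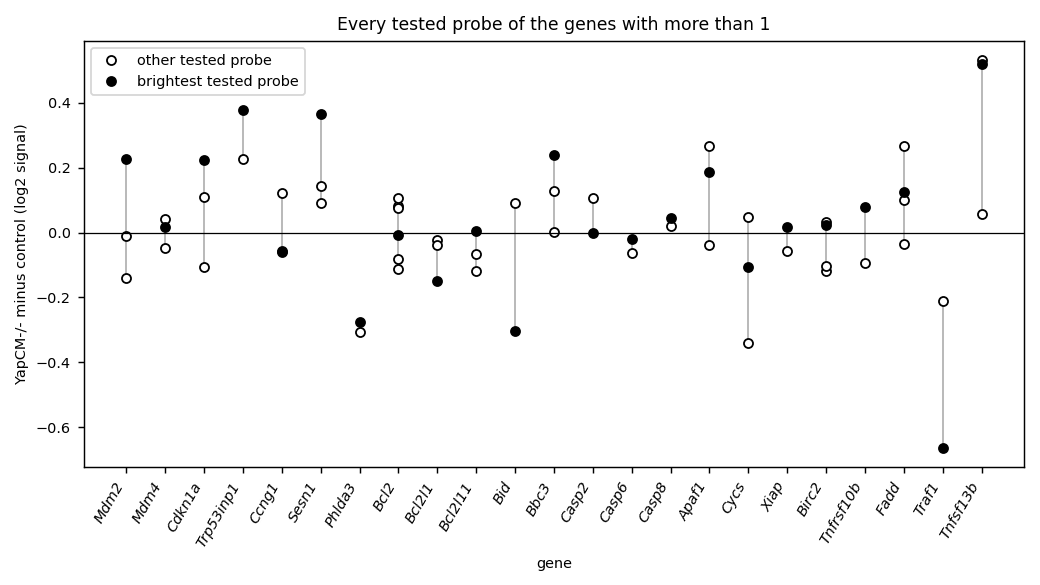
Difference in log2 signal between YapCM-/- and control kidneys for every tested probe of the 23 genes that had more than 1; the filled circle is the brightest probe and the open circles are the others. The probes of 14 genes fall on both sides of 0, and those of Traf1 and Tnfsf13b on 1 side.

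Probes of 1 gene often differed in sign. Of the 23 genes with more than 1 tested probe, 14 had probes on both sides of 0 and 9 had all on 1 side. Those with all probes above 0 were Trp53inp1, Sesn1, Bbc3, Casp8 and Tnfsf13b. Those with all below were Phlda3, Bcl2l1, Casp6 and Traf1.

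Among caspases, the apoptosome and its inhibitors, 9 genes had a tested probe and none of the 20 probes passed in limma (1 at an unadjusted p under 0.05, higher). Every brightest probe differed by less than 0.25, and the median was 0.016. Casp2, an initiator caspase linked to p53 signalling, read 11.98 in both groups, with an interval from -0.17 to 0.17. Casp9, the initiator on the apoptosome, stood at 0.06 (interval -0.12 to 0.24), Casp8, the initiator at death receptors, at 0.04 (interval -0.18 to 0.27) and Casp6, an executioner, at -0.02 (interval -0.25 to 0.22). Cycs, cytochrome c, read 12.01, 12.09 and 12.02 in control and 11.85, 12.06 and 11.90 in YapCM-/- kidneys. These values overlapped, with a difference of -0.11 (SE 0.083, adjusted p = 0.689). A dimmer Cycs probe stood at -0.34 (interval -0.77 to 0.08), with 10.19 on control replicate 2 far above the other controls at 9.62 and 9.30.

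Apaf1, the scaffold of the apoptosome and also a p53 target, differed by 0.19 (interval -0.05 to 0.42) on its brightest probe, the largest such difference among the brightest probes of the class, and the groups overlapped. The second probe, of similar signal, read 9.51, 9.14 and 9.47 in control and 9.66, 9.68 and 9.58 in YapCM-/- kidneys. That probe separated the groups, at 0.27 (SE 0.105, adjusted p = 0.385), and a further dim one stood at -0.04. Diablo, which relieves caspases from their inhibitors, read 10.12 in both groups. The inhibitors themselves were level: Xiap stood at 0.02 and Birc2, encoding cIAP1, at 0.02, with their other tested probes between -0.12 and 0.03. An untested Xiap probe was lower without overlap, at 7.19 against 7.05.

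In the class of death receptors, Traf adaptors and 1 ligand, the adaptor Traf1 had the lowest difference of the 35 genes by brightest probe. The ligand Tnfsf13b had the highest. Fadd, Tnfrsf10b, Traf2 and Cradd lay between -0.07 and 0.13 on theirs. Of the 13 tested probes of the class 1 passed in limma (7.69%, against 0.177% of all tested probes). At an unadjusted p under 0.05 stood 4 (30.8%, against 11.5%), all of Traf1 and Tnfsf13b. The groups did not overlap on 6 (46.2%, against 16.5%), all of Traf1, Tnfsf13b and Fadd. These shares include both Traf1 probes and the dimmest Tnfsf13b probe, which passed the filter only through the group where they were higher. The median over the 6 tested genes was only 0.031. Traf1, which joins Traf2 and cIAP proteins at TNF family receptors and is a known target of NF-kB, read 8.09, 7.78 and 7.82 in control and 7.26, 7.24 and 7.21 in YapCM-/- kidneys. The control arrays varied more than the YapCM-/- ones, and the gap between the groups was wider than either. The difference was -0.66 on the log2 scale (SE 0.094, 95% interval -0.87 to -0.45, adjusted p = 0.0328). The second Traf1 probe was lower too, at 7.53, 7.42 and 7.45 against 7.36, 7.23 and 7.18, by -0.21 (SE 0.081, adjusted p = 0.368), again without overlap.

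Both Traf1 probes passed the filter on dim probes through their control arrays. Their YapCM-/- means of 7.24 and 7.26 lay below 7.29, the lowest mean of any tested probe. The second probe is thus no separate support, the size of the fall is not settled and no fold is given. The call held with no filter (adjusted p = 0.0372) and with the background subtracted, where the difference was -1.47 (adjusted p = 0.0170). In the fits that leave out 1 array the difference ran from -0.72 to -0.57, and with the mean of both probes it was -0.44. RNA of a whole organ cannot tell fewer cells that express a gene from less RNA per cell. The 8 nephron progenitor markers did not move together, with 5 below 0 and 3 above. Their summed signal, in unlogged units, ranged from 4927 to 5912 in control and from 4706 to 5100 in YapCM-/- kidneys. Its part in the fall of Traf1 was not tested. The summed signal of 8 macrophage markers ranged from 1624 to 1674 in control and from 1531 to 1744 in YapCM-/- kidneys. None of these 8 passed in limma, nor did any at an unadjusted p under 0.05. The window before the Traf1 start, at chr2:34961773-34962022 on the minus strand, is shown since this is the gene that was called. It holds neither the p53 decamer nor the NF-kB site consensus nor the TEAD core GGAATG on either strand, which 7.13%, 3.90% and 12.6% of all windows hold.
Traf1: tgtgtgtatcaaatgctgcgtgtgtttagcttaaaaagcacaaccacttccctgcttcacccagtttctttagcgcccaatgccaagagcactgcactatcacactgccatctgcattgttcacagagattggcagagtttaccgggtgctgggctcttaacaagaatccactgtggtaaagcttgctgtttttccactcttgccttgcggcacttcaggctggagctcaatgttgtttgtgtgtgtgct
TEAD factors are the DNA-binding partners of Yap. Their core was found in 4 of the 51 windows of all these genes (7.84%), in Bcl2l1, Eda2r, Gdf15 and Mcl1.

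Tnfsf13b, the TNF family cytokine BAFF that sustains B cells, read 8.51, 8.45 and 8.38 in control and 8.97, 8.76 and 9.16 in YapCM-/- kidneys. All YapCM-/- values were above all control values, by 0.52 (SE 0.104, 95% interval 0.29 to 0.75, adjusted p = 0.115), or 1.43-fold. A second probe gave 8.27, 8.40 and 8.24 against 8.72, 8.81 and 8.99, a difference of 0.53 (SE 0.092, adjusted p = 0.0804), or 1.45-fold. Both bright probes thus gave about the same size and neither passed, and a further dim one stood at 0.06, also without overlap. That dim probe passed the filter only through the YapCM-/- arrays, with a control mean of 7.26. The known receptors of this cytokine, Tnfrsf13b, Tnfrsf13c and Tnfrsf17, had only probes too dim to be tested. One of its start sites holds a p53 decamer 141 bases upstream, within the gene's outer bounds, at chr8:10006467-10006526 on the plus strand.
Tnfsf13b: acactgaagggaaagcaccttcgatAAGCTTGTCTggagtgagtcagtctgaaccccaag

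Fadd, the adaptor between death receptors and caspase 8, read 8.91, 9.07 and 9.01 in control and 9.08, 9.15 and 9.14 in YapCM-/- kidneys. The groups nearly touched, and the difference was 0.13 (SE 0.078, adjusted p = 0.586). Its other 3 probes overlapped between the groups and stood at 0.10, 0.27 (interval -0.05 to 0.58) and -0.04. Tnfrsf10b, the TRAIL receptor and a p53 target, stood at 0.08 (interval -0.17 to 0.33), Cradd, an adaptor of caspase 2, at -0.07 and Traf2, the partner of Traf1, at -0.02 (interval -0.19 to 0.15). Fas, the receptor of Fas ligand, was not tested: its 4 probes read from 6.94 to 7.40 over the 6 arrays and overlapped between the groups.

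**Figure D4:**
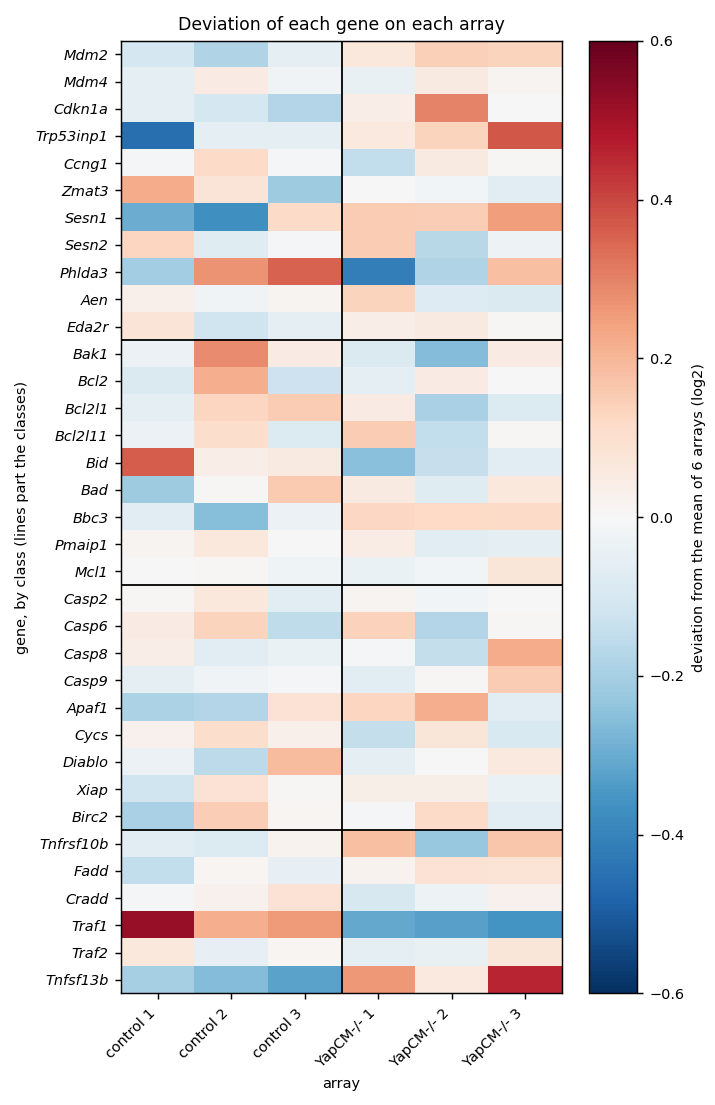
Deviation of the brightest tested probe of 35 genes from its own mean over 6 arrays, in log2 signal, with arrays in columns and genes in rows by class; red is above and blue below the mean, and colours saturate at 0.6. Traf1 is red on 3 control columns and blue on 3 YapCM-/- columns, Tnfsf13b the reverse, and most other rows vary within a group as much as between the groups.

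The classes were also read array by array, as a description. In the p53 class the median deviation of the 11 genes from their means was between -0.054 and -0.023 on the control arrays. On the YapCM-/- arrays it was between 0.0063 and 0.053. For the 32 further tested genes of the p53 network the groups overlapped. There it ran from -0.020 to 0.0098 on control arrays and from -0.025 to -0.016 on YapCM-/- arrays. In the Bcl2 family the same median ran from -0.037 to 0.064 on control arrays and from -0.071 to 0.044 on YapCM-/- arrays, so the groups overlapped. It overlapped in the caspase class, from -0.037 to 0.063 against -0.012 to 0.0080, and in the receptor class, from -0.038 to 0.018 against -0.038 to 0.078. The proliferation markers that were tested, Top2a, Cdk1, Aurkb and Plk1, did not pass (0 of 4 in limma, and 0 at an unadjusted p under 0.05), and their summed signal ranged from 6236 to 6782 in control and from 6459 to 7159 in YapCM-/- kidneys.

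A further 104 symbols of the same pathways were read, with older and newer names counted apart, and 72 of them had a tested probe. None passed in limma, with 17 of 125 probes (13.6%) at an unadjusted p under 0.05, 6 higher and 11 lower, and none passed with the replicate number as a block. Their median difference was -0.03. In the p53 network of 32 tested genes, Cop1, another ligase for p53, stood at -0.29 (adjusted p = 0.234), and Rprm, a p53-induced cell cycle brake, at 0.32 (adjusted p = 0.249). Atm, the kinase that signals DNA breaks, stood at 0.28 (adjusted p = 0.295) and Gadd45a, a stress gene and p53 target, at -0.29 (adjusted p = 0.334). The groups did not overlap on the brightest probe of any of these 4, and other tested probes of Atm and Cop1 differed in sign from it or lay near 0.

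Of 10 other Bcl2 relatives, Bcl2l2, an antiapoptotic gene, stood at 0.22 (adjusted p = 0.551), Bnip3l, a receptor for mitophagy, at -0.16, Bcl2a1b at -0.09 and Bik at 0.05. Of 11 other caspases, inhibitors and mitochondrial factors, Aifm2 stood at 0.23 (adjusted p = 0.448), Htra2, a mitochondrial protease, at -0.20 (adjusted p = 0.512), Dffa, the inhibitor of the caspase-activated nuclease, at -0.12 and Casp1, the inflammatory caspase, at -0.09. In the receptor pathway of 19 tested genes, Faim, an inhibitor of Fas-induced death, stood at -0.43 (adjusted p = 0.283) with overlapping groups. Tnfrsf12a, the receptor of TWEAK, was at -0.26 (adjusted p = 0.271), Rela, an NF-kB subunit, at 0.28 (adjusted p = 0.305) and Cflar, the inhibitor of caspase 8 known as FLIP, at 0.14 (adjusted p = 0.527), these last 3 without overlap.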

How the data were processed

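Per the labels' protocols, total RNA gave biotinylated cRNA for Illumina bead arrays. The deposited table holds log2 signals of 45281 probes on 6 arrays. The sorted values of its columns differed by at most 0.00608, as quantile normalisation by the authors would leave; no source used here gives the software or the background step. A table of values before normalisation was not used, because its 12 columns match no sample's labels. Probes were named through the platform annotation (34885 with 1 symbol, 18 with several, which were not named). The 50% of probes with the highest mean were fitted as 2 groups in limma 3.58.1 (lmFit, then eBayes; R 4.3.3) with no covariate and two-sided tests, using Benjamini-Hochberg adjustment over all of them at 0.05; every adjusted p is from this fit unless an alternative is named. The code was tested on simulated data. For a gene, the tested probe with the highest mean stands first.

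The genes, lists and tests were chosen with earlier results of these data known. Values on each array are given for genes whose brightest tested probe had an unadjusted p under 0.05 or groups that do not overlap, for Cdkn1a, Mdm2 and Bcl2, and for the brightest gene of each class; of the further symbols, the 4 with the smallest p in each class are named. The second probes of Apaf1, Traf1 and Tnfsf13b were given by array after their values were seen. Same-numbered arrays deviated with correlations of 0.13, 0.14 and -0.021, and arrays of unlike number with -0.30 to 0.23. With so few arrays these values cannot exclude a pairing, and the main fit used none. Sequences are from RefSeq, GRCm38.p6. Alternatives covered the probe filter, eBayes options, array weights, the block, background subtraction (normexp, offset 16), the mean of a gene's probes and each array left out. The number of arrays limits the precision.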

Additional observations from a re-analysis of the deposited data

How the results depend on the processing

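The count of 1 called probe among these genes was 0 with the brightest 25% of probes (Traf1 is not among them) and 0 with the mean of a gene's probes, and it was 0 whichever array was left out. Over all probes the count of 40 was 26 with the brightest 25%, 64 with trend and robust eBayes, 13 with the background subtracted and from 6 to 27 with 1 array left out. With the replicate number as a block it was 138, and 2 probes of these genes were called, the second of Tnfsf13b (adjusted p = 0.0421) beside Traf1. Whether the numbers pair the arrays could not be decided from correlations among so few arrays. Yap1 stood at -1.03 (adjusted p = 0.0526) with the background subtracted and from -0.92 to -0.78 with 1 array left out. With the brightest 25% of probes the class medians were 0.22 for p53 targets and 0.13 for receptors and adaptors, since their dim genes drop out. With 1 array left out they ran from 0.011 to 0.046 for p53 targets, from -0.069 to 0.017 for the Bcl2 family and from -0.022 to 0.056 for receptors and adaptors. Of 35 genes 18 kept their sign in all alternatives run, among them Traf1, Tnfsf13b, Mdm2, Cdkn1a, Sesn1, Trp53inp1, Bbc3 and Bid, and 17 with differences near 0 changed it in at least 1. Each fit with an array left out also has fewer samples, and why calls were lost was not tested. Without background subtraction, dim probes show compressed differences.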
